A study of Astyanax mexicanus with 36 samples.

Results

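The proteasome genes of Astyanax mexicanus were followed in ovarian oocyte libraries of 4 size categories. Members were chosen by name: any gene of the deposited count table whose symbol begins with psm, a letter from a to g and a number, in either letter case, was taken if it was also listed in the deposited normalised table. Of 59 matching symbols among 27420 genes, 56 were in the normalised table of 18259 genes. The 3 left out were a second locus named psmd11b, with 71 reads over all libraries, PSMB11, with 50 reads, and psmb11b, with 0 reads. Of the 56 members, 54 encode proteasome proteins. The others, psmc3ip, a partner of meiotic recombinases, and psme3ip1, a protein that binds the activator PSME3, share only the name.

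RNA had been sequenced from oocytes of Pachón cavefish, Molino cavefish and surface fish, all adult, of about 520 days of age and matched for age, taken from the right ovary. The genotype label was WT and the treatment label non-treated in every group. Each population had 3 libraries in each of the categories labelled 40um, 40_100um, 100_300um and 300um, 36 libraries in all. No label gives the exact diameters behind 40um and 300um, or the number of fish behind a group. The p-values therefore describe variation among these libraries, some or all of which may be technical.

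Libraries held 2992119 to 9345334 reads assigned to genes. The share of reads assigned to genes was 51.1% to 71.5% at the larger sizes and 27.1% to 51.8% at 40um. All 9 oocyte markers on the marker list were found, and their summed level was at least 1301 CPM (counts scaled to a common library size) in every library. The 40um libraries also held RNA of other ovarian and blood cells: the 7 macrophage and granulocyte markers summed to 1.36 to 19.2 CPM at 40_100um and 89.3 to 2004 CPM at 40um, and the 7 granulosa markers to 1.14 to 30.0 CPM at 40_100um and 108 to 1325 CPM at 40um. At the larger sizes, Surface 100_300um replicate 1, Surface 300um replicate 2 and Molino 300um replicate 3 stood apart with raised markers of other cells. Molino 100_300um replicate 3 also had raised stromal and granulosa markers, at 217.5 and 88.9 CPM, against at most 69.0 and 25.9 CPM in the other Molino libraries of that size, and it was not among the 3 libraries left out together below. Library numbers run in separate series for 300um, for both middle categories and for 40um, so size steps that involve 40um or 300um cannot be told apart from the library series. In bulk libraries, fewer cells of a type and less RNA per cell cannot be told apart.

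The proteasome degrades proteins tagged with ubiquitin. Its barrel-shaped 20S core is built from rings of alpha subunits (psma genes) around rings of beta subunits (psmb genes), of which PSMB5, PSMB6 and PSMB7 carry the cutting sites. The 19S cap, made of the ATPases of the psmc genes and the non-ATPases of the psmd genes, recognises, unfolds and feeds substrates. In immune cells and under interferon, PSMB8, PSMB9 and PSMB10 replace the constitutive catalytic subunits to form the immunoproteasome, which makes peptides for antigen presentation. Oocytes store proteasomes and their transcripts, and in other animals protein degradation is needed for meiotic divisions and for the clearing of maternal proteins after fertilization.

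Between 40um and 40_100um, transcripts of the constitutive complex and the assembly chaperones among the members were higher or did not pass the test, with few exceptions. Immunoproteasome transcripts were lower in all 5 genes. Levels are CPM with TMM scaling. Each change is a log2 fold change, over 9 libraries a size or, between populations, 3 libraries a group. Its standard error (SE) is the absolute change divided by the square root of the F statistic of edgeR's quasi-likelihood test. The Benjamini-Hochberg adjusted p is that of the same test, with a threshold of 0.05. Of the 56 members, 25 were higher at 40_100um and 10 were lower. Among all genes tested, 73.5% passed in either direction, 29.8% as higher and 43.8% as lower. The median change was 0.21 over the members and -0.32 over all genes tested. With DESeq2 size factors the members split into 21 higher and 12 lower, and with library totals into 28 higher and 10 lower.

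**Figure D1:**
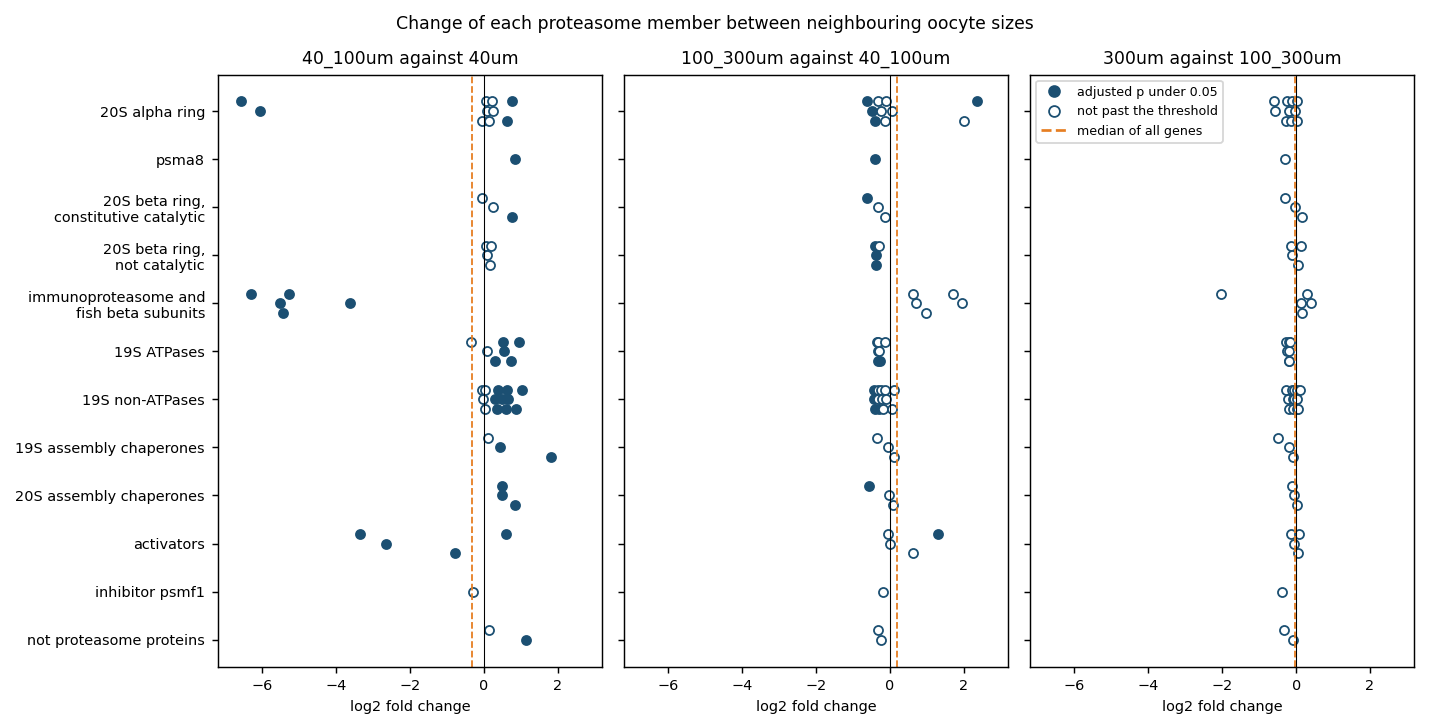
Log2 fold change of every member between neighbouring size categories (horizontal axis, larger over smaller size), grouped down the page by role; filled points have an adjusted p under 0.05 and the dashed line is the median of all genes tested. In the first step the 19S genes and chaperones lie mostly right of the line and the 5 immunoproteasome genes far to its left, in the second step 16 members are called lower, and in the third none is called.

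In the alpha ring, 2 of 10 genes rose, PSMA2 by 0.62 ± 0.111 and psma6b by 0.77 ± 0.0896, and 2 fell, PSMA7 and psma6l. The gene psma6b ranged over 40.4, 53.3 and 65.7 CPM at 40_100um (lowest, median and highest of 9 libraries), against 25.0, 29.9 and 42.8 CPM at 40um. Its copy psma6a changed by -0.05 ± 0.150 and did not pass (adjusted p = 0.794). PSMA7 and psma6l are rare transcripts that followed the immunoproteasome genes described further on.

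The gene psma8 encodes a variant of an alpha subunit that is known in mouse from spermatocytes. Its level was 134.7, 161 and 259 CPM at 40_100um (lowest, median, highest), against 53.2, 85.0 and 175 CPM at 40um. It rose by 0.86 ± 0.143 (adjusted p = 4.48e-06), although the highest 40um library lay within the 40_100um range.

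Among the constitutive catalytic subunits, psmb5, the chymotrypsin-like site, rose by 0.76 ± 0.107 (adjusted p = 2.71e-07). It had 52.2, 57.4 and 71.6 CPM at 40_100um, against 23.5, 35.4 and 45.9 CPM at 40um, without overlap. The caspase-like psmb6 changed by 0.25 ± 0.150 (adjusted p = 0.136) and the trypsin-like psmb7 by -0.05 ± 0.145 (adjusted p = 0.757), and both overlapped widely between sizes. None of the 4 structural beta genes psmb1 to psmb4 passed the test.

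The 19S cap had 5 of 7 ATPase genes and 9 of 13 non-ATPase genes higher at 40_100um, and none lower. The ATPase gene psmc3 ranged over 130.3, 168 and 256 CPM at 40_100um, against 63.2, 90.3 and 136 CPM at 40um, and rose by 0.96 ± 0.0929 (adjusted p = 3.00e-10). The ranges overlapped at their ends. The lid subunit gene psmd12 ranged over 112, 115 and 140.4 CPM at 40_100um, against 40.4, 63.2 and 90.5 CPM at 40um, without overlap, and rose by 1.03 ± 0.0876 (adjusted p = 2.69e-11). The ubiquitin receptor gene psmd4a rose by 0.87 ± 0.125. The deubiquitinase gene psmd14 changed by 0.03 ± 0.133 (adjusted p = 0.830).

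Among the members, assembly chaperones were higher in 5 of 6 genes. The largest rise of any member was that of psmd10, which encodes gankyrin, a chaperone of the 19S base. It had 42.3, 49.5 and 62.1 CPM at 40_100um, against 9.46, 12.4 and 22.9 CPM at 40um, and rose by 1.83 ± 0.134 (adjusted p = 1.74e-12). The ranges lay well apart. The other 19S chaperone gene that rose, psmd5, did so by 0.44, and the 20S chaperone genes psmg1, psmg2 and psmg3 rose by 0.49, 0.48 and 0.85. Outside the complex, psmc3ip rose by 1.15 ± 0.192 (adjusted p = 4.30e-06), with 27.7, 43.0 and 56.1 CPM at 40_100um, against 8.45, 15.3 and 33.9 CPM at 40um.

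All 5 immunoproteasome and fish-specific beta genes fell to near 0 at 40_100um. Over the 9 libraries of each size, psmb8a had 13 reads at 40_100um and 519 at 40um, which is 68.0-fold lower in CPM (95% exact interval 39.4 to 129). For psmb9a the sums were 14 and 315 reads, 38.3-fold lower (22.5 to 70.9). For psmb10 they were 48 and 328 reads, 11.6-fold lower (8.58 to 16.1). These intervals cover counting error only. Their adjusted p-values in edgeR's test ran from 4.47e-08 to 1.85e-06.

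In single libraries, psmb8a had 0, 0.151 and 0.711 CPM at 40_100um (lowest, median, highest), against 3.07, 8.65 and 58.9 CPM at 40um. The fish genes psmb12 and psmb13a, which lie between psmb9a and psmb8a in the RefSeq table of assembly AstMex3_surface, had 7 and 10 reads in all at 40_100um, against 207 and 330 at 40um, 50.4-fold (24.0 to 127) and 56.2-fold lower (30.2 to 118). The same order of protein-coding genes is flanked there by tap2a and tapbp.1, which encode parts of the peptide loading machinery. The alpha genes PSMA7 and psma6l had 8 and 10 reads at 40_100um, against 236 and 331 at 40um, 50.2-fold (25.1 to 118) and 56.4-fold lower (30.3 to 119), and 7 of 9 libraries had no PSMA7 read at 40_100um.

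**Figure D2:**
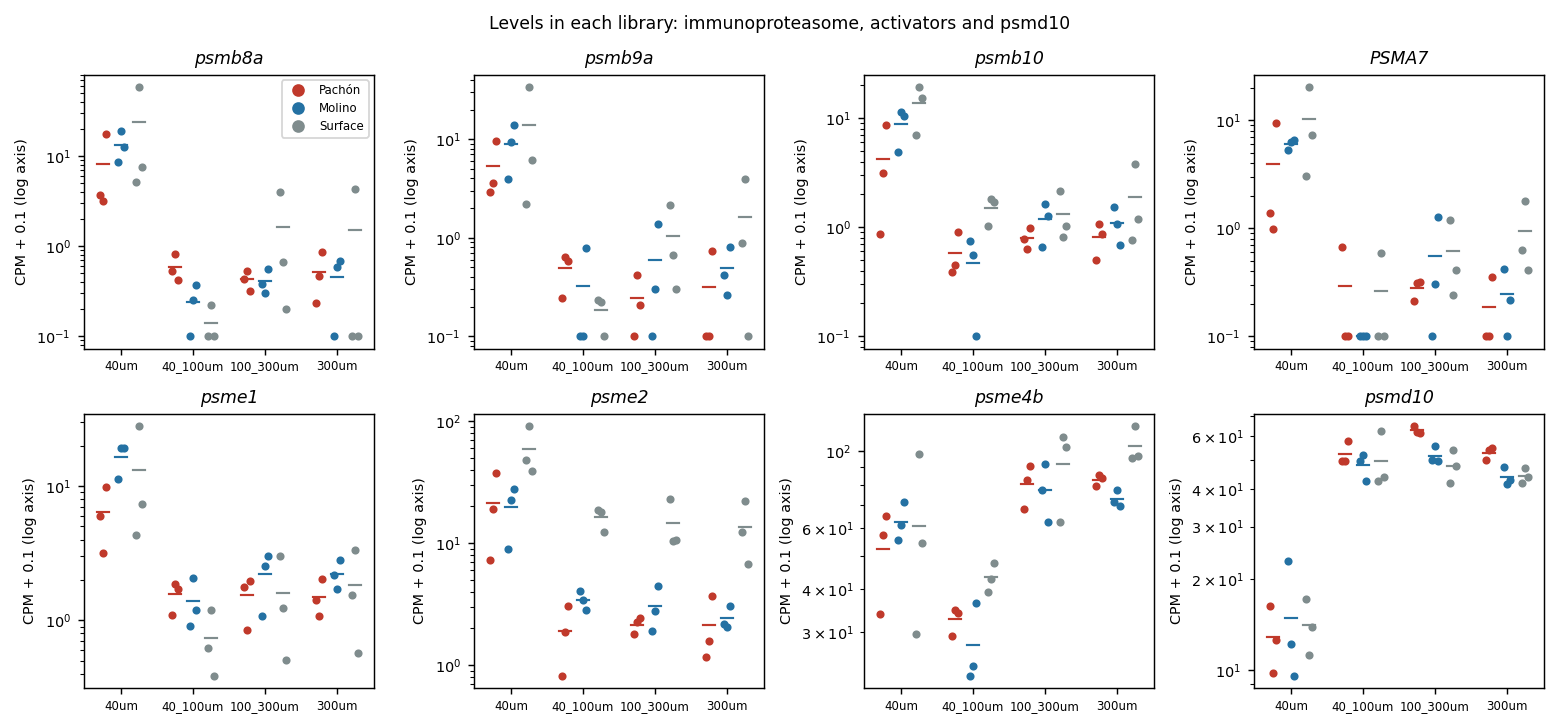
Level of psmb8a, psmb9a, psmb10, PSMA7, psme1, psme2, psme4b and psmd10 in each library (CPM + 0.1, log axis) by size category; dots are libraries coloured by population and bars are group means. The immune genes and PSMA7 drop at 40_100um, psme2 stays higher in the surface libraries at the larger sizes, psme4b is lowest at 40_100um, and psmd10 is lowest at 40um.

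The regulators of the core split. The genes psme1 and psme2, which encode the interferon-inducible PA28 activator, fell by 3.34 ± 0.422 and 2.65 ± 0.327 (adjusted p = 4.36e-08 and 2.98e-08). The gene psme3, which encodes the related nuclear activator, rose by 0.60 ± 0.126 (adjusted p = 0.000113). The gene psme4b, which encodes a copy of PA200, known in mouse for degradation of acetylated histones in spermatogenesis, had 22.4, 34.7 and 47.5 CPM at 40_100um, against 29.6, 57.1 and 98.5 CPM at 40um, and fell by 0.78 ± 0.166 (adjusted p = 0.000123). The inhibitor gene psmf1 changed by -0.29 ± 0.176 and did not pass (adjusted p = 0.143).

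The immunoproteasome genes moved with the markers of other cells. All 7 macrophage and granulocyte markers, 6 of 7 lymphocyte markers, 7 of 7 granulosa markers and 7 of 8 erythrocyte markers were also lower at 40_100um. The medians of c1qa, c1qb, lyz and mpx were 0 there. At 40um the summed level of the 5 immunoproteasome genes was highest in Surface replicate 2, at 172 CPM with 2004 CPM of macrophage and granulocyte markers, and lowest in Pachón replicate 1, at 9.80 CPM with 89.3 CPM of these markers. The part of these cells in the fall, or in the rises of other members in this step, was not tested. Mean levels of the oocyte markers ddx4, bmp15 and gdf9 were 197, 21.1 and 15.4 CPM at 40um. They were 780, 81.7 and 67.0 CPM at 40_100um. The mean of zar1l was also higher at 40_100um, and those of zar1, zp2l1, npm2b, cpeb1a and figla were lower. Of 13 antigen presentation and interferon genes tested, 9 were lower at 40_100um and none higher, among them cd74a by -7.54, b2m by -6.47 and the peptide transporter gene tap2a by -4.51.

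**Figure D3:**
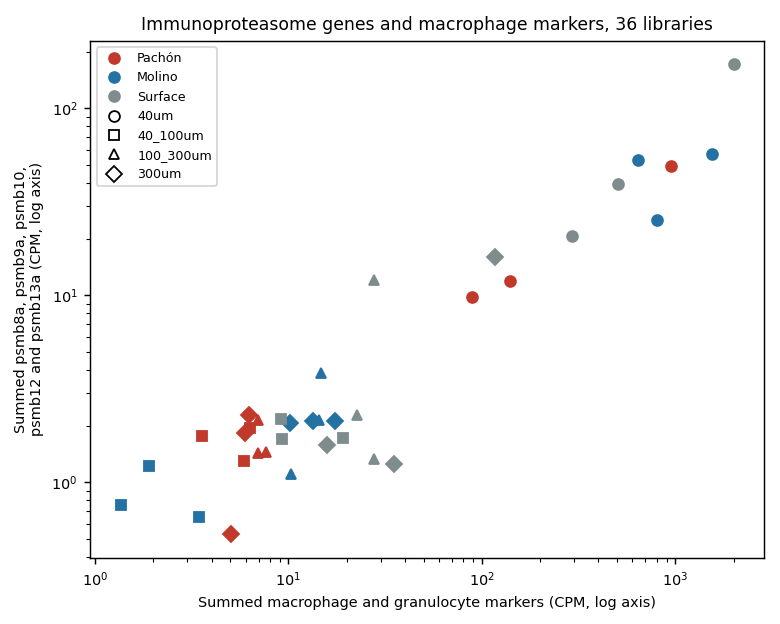
Summed level of the 5 immunoproteasome and fish beta genes (vertical axis, CPM, log axis) against the summed level of 7 macrophage and granulocyte markers (horizontal axis, CPM, log axis). Each library is 1 point, coloured by population and shaped by size category. The 40_100um libraries lie at 0.653 to 2.19 CPM on the vertical axis and the 40um libraries at 9.80 to 172 CPM, and Surface 300um replicate 2 stands apart among the larger sizes at 16.0 CPM.

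Of 26 partner genes of the proteasome that were tested, 13 were higher and 8 lower at 40_100um, a share of 80.8%, against 73.5% of all genes. The proteasome-bound deubiquitinase gene usp14 rose by 1.12, and uchl5, another, rose by 0.83. The gene nfe2l1a, whose product Nrf1 drives proteasome genes in mammals, rose by 0.84 on average over the 3 populations, but not in each. In Pachón it had 158, 142 and 130 CPM at 40_100um, against 136, 166 and 157 CPM at 40um. In Molino it had 183, 186 and 183 CPM, against 86.0, 78.9 and 96.7 CPM. Surface libraries had 184, 309 and 230 CPM, against 96.1, 104 and 46.7 CPM. The gene ddi2, whose product cuts Nrf1, rose by 1.02. The ubiquitin genes UBB and rps27a fell by 1.57 and 1.56. Among partners that act in assembly or import of the proteasome, pomp changed by -0.55, AKIRIN2 by 0.46 and ipo9 by 0.72. The largest change of a called partner was that of zfand5b, at -1.61.

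Between 40_100um and 100_300um the constitutive complex was lower relative to other genes. Of the 56 members, 16 were lower at 100_300um and 2 higher, while 8.37% of all genes were lower and 24.6% higher, 33% in all. The median change was -0.24 over the members and 0.19 over all genes tested, and the direction for the members rested on the scaling: with library totals 2 members were lower and 6 higher, with DESeq2 size factors 30 were lower and 2 higher. The all-gene median was 0.40 with library totals and 0.12 with DESeq2 size factors. The summed level of the 38 core and cap genes, which here leave out the 5 immunoproteasome and fish genes and include psma8, was 3459 to 4367 CPM at 100_300um, against 4175 to 6120 CPM at 40_100um. Oocyte markers moved with this, summing to 2370 to 4110 CPM at 100_300um, against 3775 to 9499 CPM at 40_100um, with 5 of 9 lower, and 6 of 7 granulosa markers were higher. Their part in the difference was not tested. Without Surface 100_300um replicate 2 the count of called members was 11 in place of 18, and without any 1 of 12 other libraries, 7 of them from 40um, it was 28 to 32.

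The largest fall was that of the catalytic gene psmb6, which had 40.8, 53.8 and 62.8 CPM at 100_300um (lowest, median, highest), against 73.1, 80.05 and 100.3 CPM at 40_100um, without overlap. It fell by 0.63 ± 0.150 (adjusted p = 0.00179). The alpha gene psma3 fell by 0.61 (adjusted p = 0.00351), the chaperone gene psmg1 by 0.57, the alpha gene psma4 by 0.48 and the lid gene psmd6 by 0.43. The variant psma8 fell by 0.39 ± 0.141 (adjusted p = 0.0328). The catalytic genes psmb5 and psmb7 changed by -0.14 and -0.32 and did not pass.

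The activator gene psme4b went against the members called lower. It had 62.3, 82.4 and 109.7 CPM at 100_300um, against 22.4, 34.7 and 47.5 CPM at 40_100um, without overlap, and rose by 1.29 ± 0.165 (adjusted p = 2.21e-06). The 9 libraries of 300um stayed in the range of 69.6 to 118 CPM. The other call among the higher genes was psma6l, by 2.35 ± 0.809 (adjusted p = 0.0270), at levels of 0 to 1.34 CPM. That call was lost without the 3 libraries with raised markers of other cells, where the change was 2.07. None of the 5 immunoproteasome genes passed, although all 5 changes were positive, and their summed level was highest in Surface 100_300um replicate 1, at 12.02 CPM.

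Between 100_300um and 300um none of the 56 members passed edgeR's test, 7 had an unadjusted p under 0.05, and DESeq2 called 0. Among all genes tested, 0.4% passed.

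Some subunits have 2 copies, and their ratio is given as a description, since differences between copies were not tested. The mean log2 ratio of psma6a to psma6b was 0.60 ± 0.633 at 40um, -0.17 ± 0.236 at 40_100um, -0.64 ± 0.265 at 100_300um and -0.72 ± 0.223 at 300um (SD, n = 9 each). The ratio of psmd13 to PSMD13 was 0.48 ± 0.378, -0.16 ± 0.446, -0.35 ± 0.346 and -0.36 ± 0.326 in the same order. That of psmc1a to psmc1b was 0.30 ± 0.304, -0.12 ± 0.170, -0.32 ± 0.178 and -0.32 ± 0.167. In each of these 3 pairs the mean over populations was above 0 at 40um and below 0 at the larger sizes. By population, with no test, psmd13 over PSMD13 at 40_100um was -0.48 ± 0.186 in Pachón, 0.33 ± 0.289 in Molino and -0.33 ± 0.348 in surface libraries (SD, n = 3 each). At 40um psma6a over psma6b was 0.93 ± 0.681 in Pachón, 0.14 ± 0.092 in Molino and 0.72 ± 0.790 in surface libraries. The 40um libraries also held RNA of other cells, whose part in these ratios was not tested. For psma2a over PSMA2 the mean lay between -0.01 and 0.35, and for psmd11a over psmd11b between -2.07 and -1.84. Reads that matched near-identical copies equally were not assigned to either, so these ratios rest on the reads that tell copies apart.

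Between populations, no member passed at 40um in any of the 3 comparisons. Of all genes, 2.88% passed for Pachón against surface, 0.521% for Molino against surface and 3.18% for Pachón against Molino in edgeR's test. An unadjusted p under 0.05 was found for 5, 6 and 0 members in that order, and DESeq2 called 0 in each. The spread between libraries was wide at this size, with a common dispersion of 0.0509 to 0.0691 at the larger sizes and 0.246 at 40um. In 1 fit of all 36 libraries, which shares the spread of all sizes, 8, 12 and 6 of 56 members passed. In that fit 23.1%, 10.8% and 20.5% of all genes passed.

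At the larger sizes, most members that passed between Pachón and another population were higher in Pachón, but the share of members that passed was below that of all genes in 5 of 6 comparisons. The 7 members too low to be tested at 40_100um and 300um were the 5 immunoproteasome genes, PSMA7 and psma6l. Against surface fish, 12 of 49 members tested passed at 40_100um, 10 of them higher in Pachón, where 33.2% of all genes passed (16.8% higher, 16.4% lower). At 100_300um 6 of 50 passed, 4 of them higher (19.9% of all genes, 10% higher and 9.86% lower, with 10 calls without Surface replicate 1 and 2 without Pachón replicate 1 or 3 or Surface replicate 3), and at 300um 15 of 49 passed, 12 of them higher (32.4% of all genes, 15.9% higher and 16.5% lower). Against Molino, 12 of 49 passed at 40_100um, 9 of them higher in Pachón (37.6% of all genes, 19.4% higher and 18.2% lower). At 100_300um it was 11 of 50, 9 of them higher (25% of all genes, 13.5% higher and 11.5% lower, with 3 to 7 calls without any 1 of the 3 Pachón libraries or of Molino replicates 1 and 2), and 21 of 49 at 300um, 18 of them higher (34.5% of all genes, 18.5% higher and 15.9% lower). The share of members called was above that of all genes, at 42.9%, for Pachón against Molino at 300um. With library totals as the scale, the split was 9 higher and 5 lower for Pachón against surface at 40_100um and 6 higher and 3 lower for Pachón against Molino at 100_300um. Markers moved with the calls at 40_100um: oocyte markers summed to 6104 to 9499 CPM in Pachón, 4602 to 4988 CPM in Molino and 3775 to 4859 CPM in surface libraries. Granulosa markers summed to 25.2 to 30.0 CPM in Pachón, 1.14 to 10.6 CPM in Molino and 6.32 to 17.2 CPM in surface libraries there. Theca and stroma markers summed to 61.9 to 92.0 CPM in Pachón, 7.83 to 65.7 CPM in Molino and 13.6 to 29.7 CPM in surface libraries. The part of other cells in the calls was not tested.

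At 300um, 16 of 36 core and cap genes tested, psma8 among them, were higher in Pachón than in Molino and 0 lower, with a median of 0.26 over these genes and -0.01 over all genes. Against surface fish, 11 were higher and 1 lower, with medians of 0.23 and -0.03. Summed over all 38 genes, the level was 3870 to 4338 CPM in Pachón, 3332 to 3472 CPM in Molino and 3393 to 3632 CPM in surface libraries, so that Pachón lay above both. With library totals as the scale, the members split into 11 higher and 4 lower for Pachón against Molino and 7 higher and 4 lower for Pachón against surface at 300um, with all-gene medians of -0.17 and -0.15. Summed oocyte markers moved with this: they were 3648 to 4892 CPM in Pachón, 2363 to 2680 CPM in Molino and 1935 to 3112 CPM in surface libraries at 300um, and 5 of 9 were higher in Pachón than in Molino and 0 lower. Their part in the difference was not tested. The counts depended on the fit. With 1 fit of all 36 libraries, 4 members passed for Pachón against Molino and 1 for Pachón against surface at 300um. In that fit 16.3% and 14% of all genes passed. Without Molino replicate 2 the count against Molino was 11, and without Pachón replicate 1 the count against surface was 9.

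**Figure D4:**
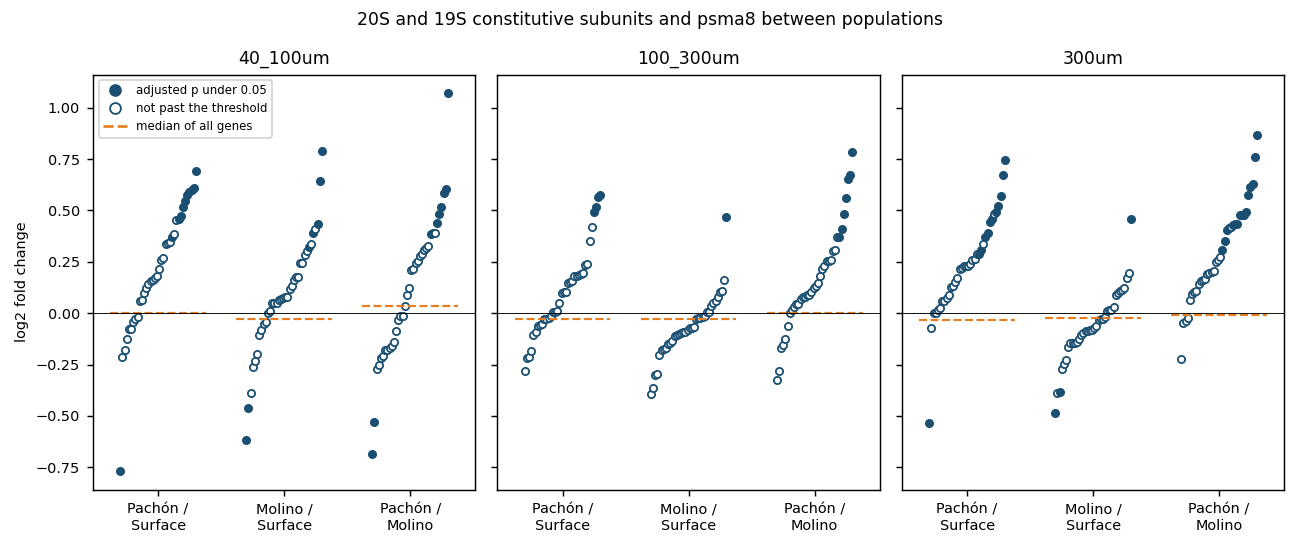
Log2 fold change of the constitutive 20S and 19S genes and psma8 between populations (Pachón over surface, Molino over surface, Pachón over Molino) at the 3 larger sizes; filled points have an adjusted p under 0.05 and the dashed line is the median of all genes tested. At 300um, 34 of the 36 genes tested, psma8 included, are above 0 for Pachón over surface and 32 of 36 for Pachón over Molino. The medians of all genes there are -0.03 and -0.01. The signs depend on the TMM scaling: the median over all members tested is 0.22 and 0.21 with it, and 0.10 and 0.04 with library totals. The medians of all genes with library totals are -0.15 and -0.17.

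Genes that passed at all 3 larger sizes were psma4, psma8, psmc2 and psmd6 as higher in Pachón than in surface fish. Against Molino they were psma4, psma8, psmb3, psmd6, PSMD13 and psmg3 as higher and psmg1 as lower. These comparisons share the Pachón libraries. Same-numbered libraries of a population also deviated together across these sizes, with r over 0.1 in 8 of 9 and 9 of 9 pairs of neighbouring sizes. Calls at the 3 sizes are therefore not independent of each other. The calls at 100_300um rested on single libraries. No member was called higher in Pachón than in surface fish there without Pachón replicate 1, Pachón replicate 3 or Surface replicate 3. Against Molino, 2 members were called higher and 1 lower there without Pachón replicate 1 or without Molino replicate 2. Over the 3 larger sizes, 18, 12 and 23 members passed at any size for Pachón against surface, Molino against surface and Pachón against Molino. None passed in opposite directions at different sizes of a comparison. At single sizes 19.9% to 33.2%, 14.6% to 29.5% and 25% to 37.6% of all genes passed, in the same order. The shares of all genes that passed at any size, at all 3 or in opposite directions were not counted.

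The alpha variant gene psma8 had 259, 219 and 237 CPM in Pachón at 40_100um, against 148, 161 and 135 CPM in Molino and 135, 174 and 135 CPM in surface libraries. At 300um it had 148, 130.4 and 146 CPM in Pachón, against 97.5, 90.8 and 89.1 CPM in Molino and 108, 81.8 and 96.8 CPM in surface libraries. All Pachón libraries lay above all others at both sizes. The change against surface was 0.61 ± 0.125, 0.57 ± 0.176 and 0.57 ± 0.128 from 40_100um to 300um, and against Molino 0.61 ± 0.126, 0.67 ± 0.176 and 0.63 ± 0.128.

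The alpha gene psma4, whose protein sits in the same ring, had 100.3, 87.3 and 87.3 CPM in Pachón at 300um, against 63.8, 56.3 and 66.4 CPM in Molino and 57.1, 57.3 and 50.1 CPM in surface libraries. The change at 300um was 0.75 ± 0.108 against surface (adjusted p = 0.000749) and 0.57 ± 0.108 against Molino (adjusted p = 0.00248). The Pachón libraries did not overlap with the others. The lid gene psmd6 had 108, 84.1 and 101 CPM in Pachón at 300um, against 60.1, 57.3 and 58.2 CPM in Molino and 74.3, 59.7 and 50.6 CPM in surface libraries, again without overlap. The ATPase gene psmc2 was higher in Pachón than in surface fish by 0.55 ± 0.165, 0.52 ± 0.144 and 0.52 ± 0.0977 at the 3 larger sizes.

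**Figure D5:**
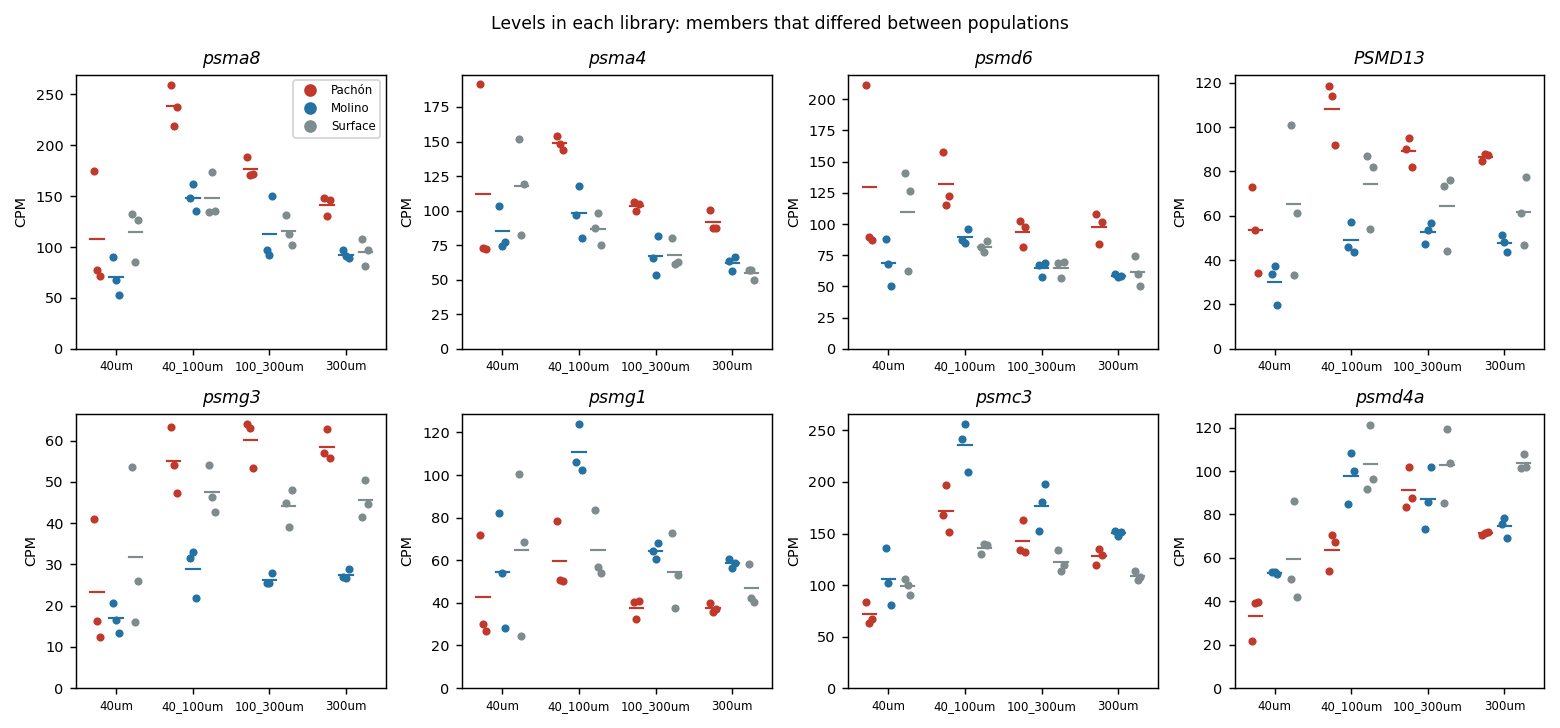
Level of psma8, psma4, psmd6, PSMD13, psmg3, psmg1, psmc3 and psmd4a (CPM, linear axis) in each library by size category and population; dots are libraries and bars are group means. Pachón lies highest for psma8, psma4 and psmd6 at the larger sizes, Molino lowest for psmg3 and highest for psmc3, and Pachón lowest for psmg1.

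The structural beta gene psmb2 was higher in Pachón than in surface fish by 0.59 ± 0.147 at 40_100um and by 0.49 ± 0.1003 at 300um, and the ATPase gene psmc1a by 0.57 ± 0.148 at 40_100um. Against the trend, psmd4a was lower in Pachón at 40_100um, with changes of -0.77 ± 0.157 against surface and -0.68 ± 0.157 against Molino.

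Some members set the cave populations apart from each other. The lid gene copy PSMD13 had 84.6, 87.7 and 87.3 CPM in Pachón at 300um, against 51.5, 48.3 and 43.8 CPM in Molino, and was higher in Pachón by 1.07 ± 0.201, 0.78 ± 0.188 and 0.87 ± 0.176 at the 3 larger sizes. Surface libraries, at 61.1, 47.0 and 77.4 CPM, lay across the gap between them. The cap gene psmd8 was also higher in Pachón than in Molino, by 0.58 ± 0.139 at 40_100um and 0.61 ± 0.113 at 300um, and the 19S chaperone gene psmd9 by 0.76 ± 0.251 at 100_300um.

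Among the core chaperone genes, psmg2 did not pass between populations at the 3 larger sizes, with changes of -0.17 to -0.03 for Pachón against Molino. The genes psmg3 and psmg1 moved in opposite directions. Of these, psmg3 had 57.1, 62.8 and 55.7 CPM in Pachón at 300um, against 26.9, 26.7 and 28.8 CPM in Molino and 41.6, 50.4 and 44.6 CPM in surface libraries, so the 3 populations did not overlap. Its change was 1.11 ± 0.108 for Pachón against Molino (adjusted p = 4.92e-05), -0.74 ± 0.108 for Molino against surface (adjusted p = 0.00122) and 0.37 ± 0.105 for Pachón against surface (adjusted p = 0.0213). For Molino against surface psmg3 was lower at each of the 3 larger sizes. In contrast psmg1 was lower in Pachón than in Molino, by -0.97 ± 0.196, -0.75 ± 0.221 and -0.63 ± 0.152, with 40.05, 35.8 and 37.1 CPM in Pachón at 300um, against 60.7, 56.5 and 58.9 CPM in Molino.

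In Molino, members differed from surface fish in both directions: 11 of 49 passed at 40_100um, 6 higher and 5 lower (29.5% of all genes, 14.1% higher and 15.4% lower). At 100_300um 3 of 50 passed, 1 higher and 2 lower (14.6% of all genes, 6.63% higher and 7.95% lower), and at 300um 6 of 49, 1 higher and 5 lower (16.5% of all genes, 7.35% higher and 9.13% lower). With library totals the split at 40_100um was 3 higher and 8 lower, with an all-gene median of -0.15. Of the 36 core and cap genes tested at 300um, 1 was higher and 2 lower. The count at 40_100um was 5 without Surface replicate 3, and 6 without Molino replicate 1, Molino replicate 2 or Surface replicate 1. The ATPase gene psmc3 was higher in Molino at all 3 larger sizes, although its call at 100_300um, at 0.47 ± 0.126, was lost with the replicate block and without any 1 of Molino replicates 2 and 3 or Surface replicates 2 and 3, with changes of 0.41 to 0.47. It had 241, 256 and 210.1 CPM in Molino at 40_100um, against 130.3, 139 and 139 CPM in surface libraries, a change of 0.79 ± 0.141 (adjusted p = 0.00111). At 300um it had 153, 148 and 151 CPM in Molino, against 113, 105 and 108 CPM in surface libraries. The groups did not overlap at either size. At 40_100um it was also lower in Pachón than in Molino, with a change of -0.53 ± 0.140.

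Other calls for Molino against surface at 40_100um were higher psmd1, psmg1, psma3 and psmc5, by 0.64 ± 0.122, 0.77 ± 0.194, 0.43 ± 0.144 and 0.39 ± 0.135. Lower there were PSMD13, psme4b and psmd8, at -0.62 ± 0.201, -0.66 ± 0.195 and -0.46 ± 0.139. At 300um psmd8 was again lower, at -0.38 ± 0.113.

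Both cave populations were lower than surface fish in psmd4a, the ubiquitin receptor, and psme4b at 300um. The gene psmd4a had 70.7, 71.4 and 71.8 CPM in Pachón and 75.7, 78.4 and 69.3 CPM in Molino, against 101, 108 and 102 CPM in surface libraries, with changes of -0.54 ± 0.0875 and -0.49 ± 0.0877. The gene psme4b had 79.3, 85.6 and 83.5 CPM in Pachón and 71.2, 77.5 and 69.6 CPM in Molino, against 95.8, 118 and 97.2 CPM in surface libraries. Its changes were -0.32 ± 0.0939 and -0.52 ± 0.0946. No cave library reached the lowest surface library in either gene. The call of psme4b in Pachón was lost without the 3 libraries with raised markers of other cells, where the change was -0.25.

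The inhibitor gene psmf1 was lower in Pachón than in Molino at 300um, with 4.36, 4.40 and 4.60 CPM in Pachón, against 11.1, 8.14 and 8.81 CPM in Molino, a change of -1.05 ± 0.275 (adjusted p = 0.0137). Outside the complex, psmc3ip was lower in Pachón at 100_300um, with 26.5, 27.7 and 26.8 CPM, against 50.0, 47.1 and 46.1 CPM in Molino and 39.2, 42.3 and 38.01 CPM in surface libraries. The changes were -0.80 ± 0.123 against Molino and -0.60 ± 0.124 against surface, and at 300um the change against Molino was -0.37 ± 0.116.

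The largest population difference was that of psme2, the beta subunit of the PA28 activator, which was lower in both cave populations at the 3 larger sizes. At 40_100um it had 0.719, 1.78 and 2.93 CPM in Pachón and 3.92, 3.33 and 2.72 CPM in Molino, against 18.4, 17.9 and 12.3 CPM in surface libraries. At 100_300um it had 1.69, 2.15 and 2.31 CPM in Pachón and 1.81, 2.66 and 4.32 CPM in Molino, against 22.8, 10.2 and 10.4 CPM in surface libraries. No cave library reached the lowest surface library at either size. The changes from 40_100um to 300um were -3.24 ± 0.435, -2.86 ± 0.447 and -2.70 ± 0.522 in Pachón and -2.28 ± 0.404, -2.38 ± 0.436 and -2.52 ± 0.519 in Molino, with adjusted p-values from 0.000118 to 0.0077.

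Its partner psme1, which forms the same ring, had 1.01, 1.78 and 1.63 CPM in Pachón and 0.816, 1.97 and 1.09 CPM in Molino at 40_100um, against 0.527, 1.096 and 0.289 CPM in surface libraries, and did not pass. Macrophage and granulocyte markers were also higher in surface libraries at 40_100um: they summed to 3.56 to 6.34 CPM in Pachón, 1.36 to 3.43 CPM in Molino and 9.13 to 19.2 CPM in surface libraries. Between the cave populations these markers were higher in Pachón at 40_100um, while psme2 was not higher there. For Pachón against Molino psme2 changed by -0.95 to -0.18 over the 3 larger sizes and did not pass. At 100_300um the markers summed to 6.93 to 7.64 CPM in Pachón, 10.3 to 14.7 CPM in Molino and 22.5 to 27.8 CPM in surface libraries. At 300um the sums were 5.02 to 6.26, 10.2 to 17.4 and 15.8 to 117 CPM in that order. The part of these cells in the psme2 difference was not tested. At 40_100um most of the marker sum was csf1ra, at 0.908 to 18.9 CPM. In any library at that size, spi1b reached at most 1.79 CPM, c1qa 0.325, c1qb and c1qc 0.244, lyz 0.163 and mpx 0.132 CPM. At 40um psme2 had 7.22, 18.9 and 37.3 CPM in Pachón and 8.84, 22.3 and 27.4 CPM in Molino, against 48.0, 90.5 and 38.5 CPM in surface libraries, and did not pass.

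Among the partners, nfe2l1a was lower in Pachón than in surface fish, with log2 changes of -0.83, -0.80 and -0.75 from 40_100um to 300um. At 300um it had 131, 145 and 125 CPM in Pachón and 115, 113 and 106 CPM in Molino, against 141, 309 and 229 CPM in surface libraries. The highest Pachón library lay above the lowest surface library. It was also lower in Molino than in surface fish, at -1.09 ± 0.189 at 100_300um and -1.02 ± 0.210 at 300um (adjusted p = 0.00343 and 0.00829). At 40um nfe2l1a was not lower in Pachón, with 136, 166 and 157 CPM, against 96.1, 104 and 46.7 CPM in surface libraries. Surface replicate 2 was its highest library at each larger size, at 309, 336 and 309 CPM from 40_100um to 300um. Of the 26 partners tested at 300um, 13 were higher and 5 lower in Pachón than in Molino, against 18.5% and 15.9% of all genes.

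Whether the steps themselves differed between populations was tested as a difference of changes. From 40um to 40_100um, psmc3 rose more in Pachón than in surface fish by 0.80 ± 0.226 (adjusted p = 0.0288) and psmd12 by 0.72 ± 0.213 (adjusted p = 0.0369), 2 members in all, where 7.13% of all genes passed. Pachón psmc3 had 168, 197 and 151 CPM at 40_100um and 83.8, 63.2 and 67.4 CPM at 40um, against 130.3, 139 and 139 CPM and 106, 100.3 and 90.3 CPM in surface libraries. Of the 38 core and cap genes, 38 had a positive difference, with a median of 0.57. The median over all genes was 0.30, so most genes tested also had a positive difference. Without Pachón 40um replicate 1 the count was 19, without Surface 40um replicate 2 it was 5, and without any 1 of 14 other libraries it was 0 or 1. For Molino against surface, psmf1 alone passed, by 1.61 ± 0.427 (adjusted p = 0.0302; 3.57% of all genes), and the count was 13 without Surface 40um replicate 2, 6 without replicate 1 of Pachón or Molino at 40um, and 0 without any 1 of 7 other libraries. For the steps from 40_100um on, no member passed edgeR's test in any of the 4 differences, at most 1 had an unadjusted p under 0.05, and DESeq2 called 0, where 0.011%, 0%, 0% and 0% of all genes passed.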

How the data were processed

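RNA of 36 ovary libraries was depleted of ribosomal RNA, made into directional libraries and sequenced, per the labels' protocols. STAR 2.7.10b and RSEM were used, per the submitters' processing notes, and a genome build was not given in those. The deposited count table holds whole reads per gene, unscaled. The deposited CPM table, read as a normalised signal, holds 18259 genes and equals edgeR's CPM with TMM scaling, and it served to choose members and to check levels. Unassigned reads stayed out of library sizes: on average 20.5% lay in no gene, 12.6% mapped to several places and 9.59% did not map.

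Genes passed filterByExpr at a minimum count of 10 and a minimum total of 15. The quasi-likelihood test of edgeR 4.0.16 was run in R 4.3.3 with TMM scaling, with Benjamini-Hochberg adjustment over all genes tested at 0.05. Size steps and differences of change used all 36 libraries, and population comparisons the 9 libraries of a size. That gave 18259 genes for the steps and 14377 to 15917 genes within a size. DESeq2 1.42.0 was an alternative, as were other scalings, no filter, fits of other libraries and leaving out each library. The test was checked on simulated data, where the share of false calls lay above the threshold in the population comparisons tried. For Pachón against surface at 40um most of the changes put in were missed. Counting intervals are exact at 95%.

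Same-numbered libraries of neighbouring sizes within a population deviated together (r over 0.1 in 9 of 9 pairs from 40um to 40_100um, at 0.109 to 0.363, in 8 of 9 from 40_100um to 100_300um, at 0.0283 to 0.623, and in 9 of 9 from 100_300um to 300um, at 0.284 to 0.654). The size steps reported above were fitted without this pairing, and the replicate number served as a block in an alternative fit only. Members and lists were chosen with earlier results of these data known. Described by name were, in each comparison, the 5 called members with the largest change each way, the catalytic genes, psma8, the regulators, chaperones and copies. No sequence is printed because no sequence tables were used here.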

Additional observations from a re-analysis of the deposited data

Results flagged for a closer look

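The change of 3 members from 40um to 40_100um differed between a cave population and surface fish by a test of the difference itself, edgeR's quasi-likelihood test with Benjamini-Hochberg adjustment. The ATPase gene psmc3 rose more in Pachón by 0.80 on the log2 scale (adjusted p = 0.0288), with no overlap between Pachón and surface libraries at either size. The lid gene psmd12 rose more in Pachón by 0.72 (adjusted p = 0.0369), with 44.4, 40.4 and 50.1 CPM in Pachón at 40um, against 85.6, 90.5 and 54.3 CPM in surface libraries. The inhibitor gene psmf1 differed by 1.61 between Molino and surface fish (adjusted p = 0.0302), with 13.9, 15.0 and 9.80 CPM in Molino at 40_100um, against 6.06, 12.9 and 6.79 CPM in surface libraries. At 40um it had 10.95, 8.03 and 9.46 CPM in Molino, against 24.7, 21.4 and 11.997 CPM in surface libraries. Surface 40um replicate 2 also held the most macrophage and granulocyte markers, at 2004 CPM, and the part of other cells in these differences was not tested.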

How the results depend on the processing

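Of 1035 values of called members under settings other than leaving out a library, 878 kept their direction and stayed past the threshold, 157 kept their direction only, and 0 reversed. With library totals, with DESeq2 size factors, with DESeq2's Wald test and with a fit of only the groups compared, the count for 100_300um against 40_100um was 8, 32, 33 and 35 in place of 18. Fitting only the groups compared gave 1 for 300um against 100_300um and 0 for both called differences of change. In 1 fit of all libraries, Pachón against surface had 8 calls at 40um, 1 at 100_300um and 1 at 300um, Molino against surface had 12 at 40um, 3 at 40_100um and 1 at 300um, and Pachón against Molino had 6 at 40um, 7 at 40_100um, 1 at 100_300um and 4 at 300um. In that order, the shares of all genes called were 23.1%, 11.8% and 14%, then 10.8%, 16.7% and 7.9%, then 20.5%, 24.7%, 15.3% and 16.3%. That fit shares the wider spread at 40um, since the common dispersion was 0.0509 to 0.0691 at the larger sizes and 0.246 at 40um. Without the 3 libraries with raised markers, Pachón against surface had 10 calls at 100_300um. The difference of change in Pachón had 0 calls without the filter on low counts, 4 with DESeq2's Wald test and 0 without those 3 libraries. That in Molino had 7 with DESeq2 size factors, 0 with library totals, 0 without the filter and 12 with DESeq2's Wald test. Apart from those tied to a setting's own samples, the causes were not tested.

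With the replicate number as a block, the counts were 35, 24 and 0 for the 3 size steps. Populations do not share fish, and within a size their same-numbered libraries deviated together in only 5, 2, 3 and 3 of 9 pairs from 40um to 300um. The block gave 1 call for Pachón against surface at 40um and 7 for the difference of change in Molino, and the other counts stayed within 1.5 times.

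Leaving out 1 library at a time gave 34 to 50 calls for the first size step, 11 to 32 for the second and 0 for the third. It gave 0 for all comparisons at 40um. For Pachón against surface it gave 10 to 15, 2 to 10 and 9 to 18 from 40_100um to 300um, for Molino against surface 5 to 12, 2 to 3 and 5 to 7, and for Pachón against Molino 9 to 13, 3 to 11 and 11 to 25. The differences of change from 40um to 40_100um ranged over 0 to 19 in Pachón, with 19 without Pachón 40um replicate 1, and 0 to 13 in Molino, with 13 without Surface 40um replicate 2, and the other 4 stayed at 0. Immunoproteasome transcripts at 40_100um rest on 7 to 48 reads a gene over 9 libraries, and differences between populations there were not tested.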
